A study of Homo sapiens with 7 samples.

Results

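The K562 200 nM DasR line was compared with the K562 50 nM DasR line, which are 2 of the 7 libraries of the series, with 1 library from each line. K562 is an established human line from chronic myeloid leukemia with a BCR::ABL1 fusion, and its cell type is given as erythroblast in the labels. Dasatinib is a tyrosine kinase inhibitor that blocks BCR::ABL1 and SRC family kinases. The DasR lines came from 1 long culture in which the dasatinib dose was raised once the cells tolerated the previous one, so that the 200 nM line descends from cells that had grown at 50 nM, and each line was kept in drug for a long time. The other libraries are the 10, 15 and 25 nM DasR lines, called early stage by the study, a drug naive line without treatment, and a line kept in parallel in DMSO, the drug's solvent. The 50 and 200 nM lines were called late stage and treated as 1 group by the study, and the comparison here describes how far they differ from each other. The libraries were directional and were made from total RNA depleted of ribosomal and non-coding RNA, although the labels give the molecule as polyA RNA.

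The data are read counts per gene, with 20827519 counts in the 50 nM library and 21588772 in the 200 nM library, against 20059656 to 27844799 over all 7. Levels are given as CPM, counts scaled to the library total, and ratios as log2 of the 200 nM CPM over the 50 nM CPM after 0.5 CPM was added to both, so that the ratio of a low gene is understated. A gene entered the comparison if it had at least 10 CPM, about 208.3 counts at 50 nM or 215.9 at 200 nM, in either line, and 9998 of 25702 did. Because each line has 1 library, no test was run and no p-value is given. A gene was called higher or lower past 1 on the log2 scale, a 2-fold difference. The DMSO line against the drug naive line, the control pair, served as the yardstick. Its ratio is given for some genes and lists only, and a value left out need not be small. Intervals in square brackets are exact 95% intervals of the ratio of counts without the added 0.5 CPM. They cover counting error only, and for low genes the ratio can lie outside them.

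BCR::ABL1 is a kinase that is always on and drives growth in these cells through the RAS and ERK pathway, STAT5 and PI3K. Erythroid cells make globin chains and heme, load iron, and build a membrane of glycophorins, Rh proteins, band 3 and spectrin, under the control of GATA1, TAL1 and KLF1. K562 cells sit at an early point of this path, and can express embryonic and fetal globins. Resistance to a kinase inhibitor can come with more of the kinase, with drug pumps such as ABCG2, or with changes in the kinase itself.

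Of the 9998 genes, 296 were past the limit, 2.96%, of which 129 were higher (1.29%) and 167 lower (1.67%) in the 200 nM line. Past 2 on the log2 scale, a 4-fold difference, were 86 genes (0.86%), 49 of them higher (0.49%) and 37 lower (0.37%). In the control pair, 91 of 10163 genes were past 1 (0.895%), 9 of them higher in DMSO (0.0886%) and 82 lower (0.807%), and 10 were past 2 (0.0984%). The middle of the distribution was close to that of the controls, with a median absolute log2 ratio of 0.18 against 0.16, and the tails were wider, with a 99th percentile of 1.80 against 0.96. With the genes sorted by abundance into 10 bins of equal size, the 99th percentile of the control pair in a bin was taken as the control spread, which lay between 0.68 and 1.65. Past it were 334 genes (3.34%), 139 higher (1.39%) and 195 lower (1.95%), and 230 of the 296 called genes were among them. The other 66 called genes were within the control spread. Of the called genes, 25 were also past 1 in the control pair, 13 of them in the same direction.

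**Figure D1:**
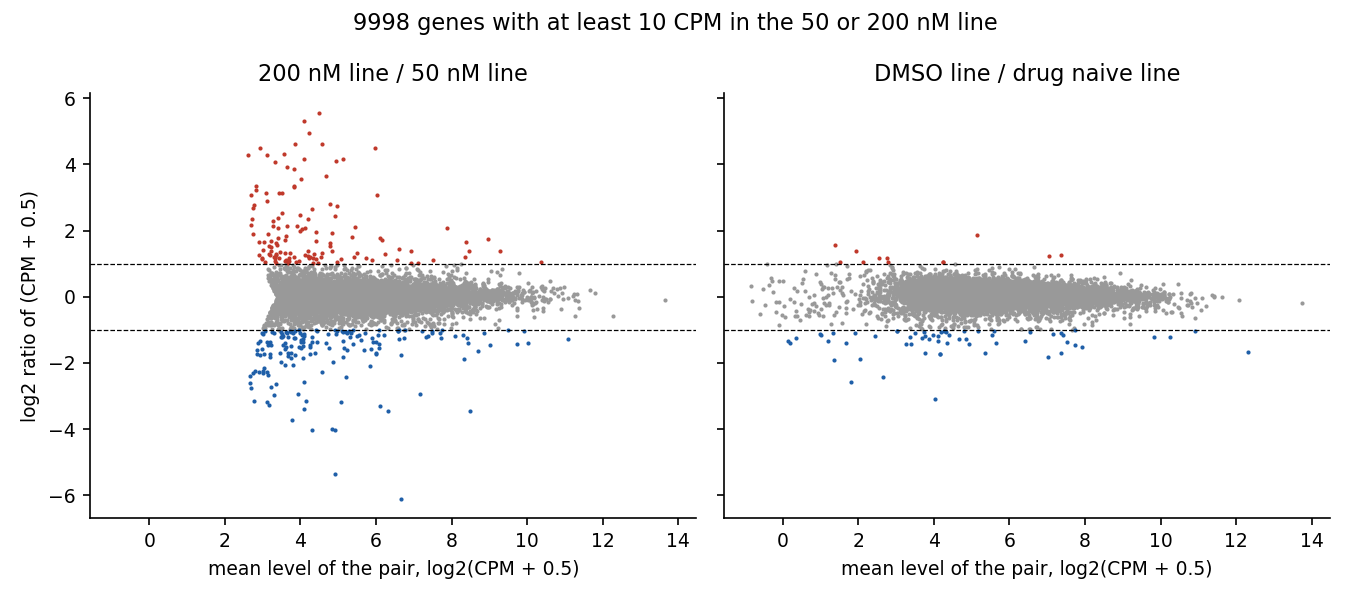
Log2 ratio (vertical axis) against the mean log2 level of the pair, both of CPM with 0.5 added, for the 9998 kept genes in the 200 nM line against the 50 nM line (left) and in DMSO against drug naive (right), 1 point per gene, with dashed lines at the 2-fold limit. Genes past the limit are colored, 296 on the left and 72 of the same genes on the right, red where higher and blue where lower.

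The difference was small beside most others in the series. Over all 21 pairs of libraries, the share of genes past the limit was 12.5% between the 200 nM and the drug naive line, 9.89% between 200 nM and DMSO, and 8.59% between 200 nM and 25 nM. It was 11.4% between the 50 nM and the drug naive line, 7.83% between 50 nM and 15 nM, 4.16% between 50 nM and 25 nM, and 3.69% between 50 nM and 10 nM. At 2.96%, the 50 and 200 nM lines stood 17th of the 21 pairs from the largest share, and only the 3 pairs among the early lines (1.06% to 2.66%) and the control pair had a smaller one. By the SD of the log2 ratios, the 50 nM line was about as far from the 25 nM line (0.436) and the 10 nM line (0.447) as from the 200 nM line (0.457), and farther from the 15 nM line (0.718). The 200 nM line was farther from each early line, with 12.3% of genes past the limit against 15 nM and 8.78% against 10 nM.

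**Figure D2:**
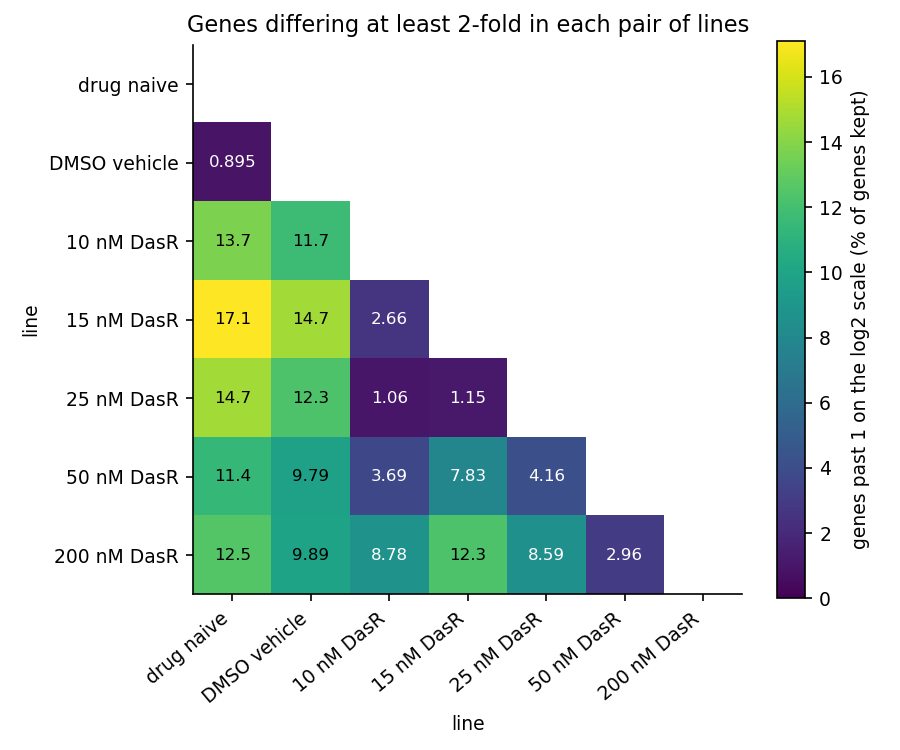
Percent of kept genes past the 2-fold limit for each of the 21 pairs of libraries, written in the square of the pair and shown by color, with genes kept at 10 CPM in either library of the pair. The square of 200 nM and 50 nM holds 2.96%, below every other square of the 200 nM line, and that of the controls 0.895%.

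The levels in the 5 libraries that played no part in the choice of the genes show where the called genes had been. Of the 167 genes lower in the 200 nM line, 101 (60.5%) had a mean over the 10, 15 and 25 nM lines at least 2-fold above the mean of the 2 controls, against 4.89% of all kept genes, and 8 (4.79%) were at least 2-fold below. Of the 129 higher genes, 77 (59.7%) were at least 2-fold below the controls in the early lines, against 6.04% of all kept genes, and 7 (5.43%) were above. By the filter, 90 lower genes were kept only through the 50 nM line and 90 higher genes only through the 200 nM line. Each set was high in the line that kept it, while 9442 of all kept genes passed in both lines. The shares are thus not like for like and are a description. Against the mean of the controls, the median of the lower genes was 1.41, 1.25 and 1.38 on the log2 scale in the 10, 15 and 25 nM lines. It was 1.01 in the 50 nM line and -0.45 in the 200 nM line, both of which were used in the choice. The median of the higher genes ran -1.54, -1.70 and -1.35 in the early lines, then -0.83 at 50 nM and 1.04 at 200 nM. All kept genes had medians between 0.02 and 0.04 in the 5 DasR lines. In the 200 nM line, 114 of the lower genes were within 2-fold of the range of the controls, 34 were at least 2-fold below both and 19 above both. Among the higher genes, 67 were within 2-fold of the controls, 57 were at least 2-fold above both and 5 below both.

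Both libraries carried the identity of K562. All 10 K562 markers passed 10 CPM, among them GATA1, KLF1, TAL1, LMO2, HBG1, HBG2, TFRC, BCR and ABL1, and their summed level was 6883 CPM at 50 nM and 5275 CPM at 200 nM, with HBG2 the most abundant (1527 and 1205 CPM). Most markers of other cells were near 0 or alike in both lines, and the exceptions are given by gene. The T cell markers summed to 23.8 and 29.8 CPM, nearly all of it CD3D, and the B cell markers to 2.98 and 3.84 CPM. Mast and basophil markers summed to 0.240 and 0.139 CPM, with 3 of 4 at 0 in both lines. The epithelial sum was 50.9 and 53.9 CPM, nearly all of it EPCAM, and the fibroblast and endothelial sum 22.7 and 15.9 CPM. COL1A1, a collagen chain of fibroblasts, was under the filter with 8.74 CPM at 50 nM and 3.52 at 200 nM (-1.20 [-1.72 to -0.92]). Monocyte markers summed to 138 and 146 CPM, led by LYZ (93.2 and 98.9 CPM). Megakaryocyte markers summed to 64.9 CPM at 50 nM and 104 CPM at 200 nM, nearly all of it ITGA2B, with 2 of the 4 at 0 in both lines, while ITGB3, the partner chain of ITGA2B, had 8.11 and 4.77 CPM (-0.71). The part of fibroblast or megakaryocyte expression in the other results was not tested.

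Some red cell genes were lower in the 200 nM line, 18 over all the red cell lists, and no kept member of the red cell lists was higher past the limit. They were 9 of 24 kept membrane genes, 3 of 7 globin genes, 2 of 17 heme genes and 2 of 12 red cell enzymes. The others were 1 of 11 iron genes and 1 of 17 erythroid transcription factors, against 1.67% of all kept genes in each case. Of 24 kept genes for proteins of the red cell membrane, 9 were lower, against 1.67% of all kept genes, and none was higher, with a median log2 ratio of -0.76, against 0.02 for all kept genes and -0.09 for the same list in the control pair. All but 2 of the 24 had a ratio below 0 and 12 were past the control spread, the 9 called genes with GYPE, XK and TMOD1. Over all 28 genes of the list, 4 of which were not kept, the summed level was 4940 CPM at 50 nM and 3569 CPM at 200 nM. Of the 9, SLC4A1, RHD and RHCE were kept only through the 50 nM line, where they were high. So were both of the lower red cell enzymes, so that these counts, and that of 18, are a description. The surface glycoproteins and channels held 8 of the 9 (median of 15 kept members -1.10), and the membrane skeleton 1 of its 9 kept members (median -0.22). In bulk RNA, fewer cells that express a gene and less of its RNA per cell cannot be told apart.

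ALAS2, the erythroid form of the first enzyme of heme synthesis, GYPB, a glycophorin, and RHD, a Rh blood group protein, were among the lower genes, and the starts of these 3 genes are printed because they hold the letters AGATAA, the core of the motif that GATA factors bind. Each window runs 5′ to 3′ on the gene's strand from 250 bases before to 50 bases after the RefSeq start (GRCh38.p14), and the capitals mark AGATAA or its reverse complement TTATCT. The ALAS2 window is chrX:55030928-55031227 on the minus strand, and its match starts 127 bases before the gene's start. The GYPB window is chr4:144019331-144019630 on the minus strand, with the match 4 bases before the start. The RHD window is chr1:25272236-25272535 on the plus strand, with the match 53 bases before the start.
ALAS2: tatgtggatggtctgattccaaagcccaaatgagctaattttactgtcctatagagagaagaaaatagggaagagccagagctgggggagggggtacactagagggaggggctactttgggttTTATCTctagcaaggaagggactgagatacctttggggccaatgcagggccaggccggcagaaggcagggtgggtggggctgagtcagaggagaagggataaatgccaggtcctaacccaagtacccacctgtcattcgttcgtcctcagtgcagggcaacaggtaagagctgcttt
GYPB: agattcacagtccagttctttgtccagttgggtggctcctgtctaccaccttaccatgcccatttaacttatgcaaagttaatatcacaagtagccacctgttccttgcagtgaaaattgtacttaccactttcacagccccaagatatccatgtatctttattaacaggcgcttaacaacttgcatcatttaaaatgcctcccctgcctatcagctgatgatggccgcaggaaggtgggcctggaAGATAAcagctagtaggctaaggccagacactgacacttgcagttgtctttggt
RHD: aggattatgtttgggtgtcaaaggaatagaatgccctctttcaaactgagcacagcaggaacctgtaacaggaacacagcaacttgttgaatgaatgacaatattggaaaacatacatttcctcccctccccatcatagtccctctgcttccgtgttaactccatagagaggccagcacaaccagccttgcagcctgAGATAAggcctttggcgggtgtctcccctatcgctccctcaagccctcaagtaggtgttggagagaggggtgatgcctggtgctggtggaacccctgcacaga

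AGATAA, searched on both strands, was found in 3628 of all 35116 RefSeq windows of the same length (10.3%), and in at least 1 window of 7.3% of the 8012 kept genes with a window. Of the 108 lower genes with a window, 18 had it (16.7%), and of the 93 higher genes 12 (12.9%). Among the 18 lower genes in the red cell lists, 9 had a window, and 6 of these held the letters, namely RHD, RHCE, PPOX, GYPB, SOX6 and ALAS2, while AQP1, CD44 and ERMAP did not. A gene can have several windows, and a gene with more of them has more chances to hold the letters. The 9 genes had 18 windows, some of which overlap, and SOX6 held the letters in 1 of its 5, so that the shares are not compared. A match of letters is a description of the sequence and not a binding site, and RHD and RHCE are near-identical copies that share much of their sequence.

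HBZ, the embryonic alpha-like globin, read 59.5 CPM in the drug naive and 74.3 in the DMSO library, 1865, 2856 and 1917 in the 10, 15 and 25 nM lines, 659 at 50 nM and 60.0 at 200 nM. It was high in the early lines, intermediate at 50 nM and between the controls at 200 nM, with a log2 ratio of -3.45 [-3.54 to -3.38], a level 10.9-fold lower than at 50 nM. HBA2 and HBA1, the adult alpha globin genes, had ratios of -1.87 and -1.65, from 505 to 138 CPM and from 630 to 200 CPM, but they also differed in the control pair, by 0.91 and 1.28. The 2 genes are near-identical copies whose reads the counting could have split. The gamma globins HBG1 (1304 and 978 CPM) and HBG2 (1527 and 1205 CPM) had ratios of -0.41 and -0.34, within the limit. HBE1, the embryonic beta-like globin, had 434 CPM at 50 nM and 737 at 200 nM, a ratio of 0.76 that was also within the limit. Of 7 kept globin genes, 3 were lower, against 1.67% of all kept genes, and none higher, and the 3 were the alpha-like HBZ, HBA1 and HBA2. HBB, HBD, HBM and the alpha globin chaperone AHSP were under 10 CPM in both lines.

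ALAS2 had 58.9 CPM in the drug naive and 40.9 in the DMSO library, 377, 514 and 300 in the early lines, 124 at 50 nM and 12.2 at 200 nM, the lowest of the 7. Its ratio of -3.29 [-3.53 to -3.16] stood apart from the rest of its pathway. PPOX, a late enzyme of the pathway, was the only other kept heme gene past the limit (41.6 and 20.01 CPM, -1.04), and 2 of 17 kept members of the list were lower, against 1.67% of all kept genes, with a median of -0.21 against -0.07 in the control pair. Among the 11 kept iron genes, 1 was lower, against 1.67% of all kept genes. It was SLC25A37, the mitochondrial iron importer (294 and 124 CPM, -1.24), though the control pair differed by -0.999 as well. TFRC, the transferrin receptor, had 1018 CPM at 50 nM and 960 at 200 nM, a ratio of -0.08.

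SLC4A1, which encodes band 3, the chloride and bicarbonate exchanger of the red cell, read 5.09 and 4.95 CPM in the controls, 139, 64.5 and 57.6 in the early lines, 53.2 at 50 nM and 2.87 at 200 nM. The 200 nM level was the lowest of the 7, below both controls, and the ratio was -3.99 [-4.60 to -3.84]. CA1, a red cell carbonic anhydrase, was likewise lowest at 200 nM, with 3.14 and 5.82 CPM in the controls, 131, 31.2 and 24.2 in the early lines, 37.1 at 50 nM and 1.81 at 200 nM (-4.03). CA2, a second carbonic anhydrase, had 12.9 CPM at 50 nM and 2.50 at 200 nM (-2.16). Both CA1 and CA2 were kept only through the 50 nM line, where they were high.

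GYPB read 27.4 and 24.0 CPM in the controls, 113, 122 and 88.7 in the early lines, 53.7 at 50 nM and 15.0 at 200 nM (-1.81 [-2.03 to -1.66]), below both controls. Glycophorin genes such as GYPB and GYPE are near-identical in part, so that reads could have moved between them. RHD and RHCE were at 28.5 and 20.2 CPM at 50 nM and at 8.29 and 5.88 CPM at 200 nM (-1.72 and -1.70). AQP1, a water channel, went from 46.0 to 11.4 CPM (-1.96), and ERMAP, an erythroblast membrane protein, from 76.6 to 24.5 CPM (-1.62). CD44, an adhesion receptor, was also lower (97.4 and 29.6 CPM, -1.70), but the control pair differed by as much (-1.72) and the 50 nM level was the highest of the 7.

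As a list, the erythroid transcription factors were not lower, though TAL1 went the same way as these genes at a smaller size. Of 17 kept members, 1 was lower, against 1.67% of all kept genes, and none higher, with a median of 0.06 against 0.11 in the control pair. GATA1 had 235 CPM at 50 nM and 295 at 200 nM (0.33), KLF1 82.6 and 81.1 CPM (-0.03), NFE2 174 and 192 CPM (0.14), GATA2 137 and 211 CPM (0.62) and TAL1 229 and 156 CPM (-0.55). None of these was past the limit. SOX6, which takes part in silencing embryonic globin, read 29.6 and 29.1 CPM in the controls, 21.9, 26.7 and 26.5 in the early lines, 29.0 at 50 nM and 13.8 at 200 nM. It was alike in 6 libraries and low in the 200 nM line alone (-1.05 [-1.28 to -0.87]).

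**Figure D3:**
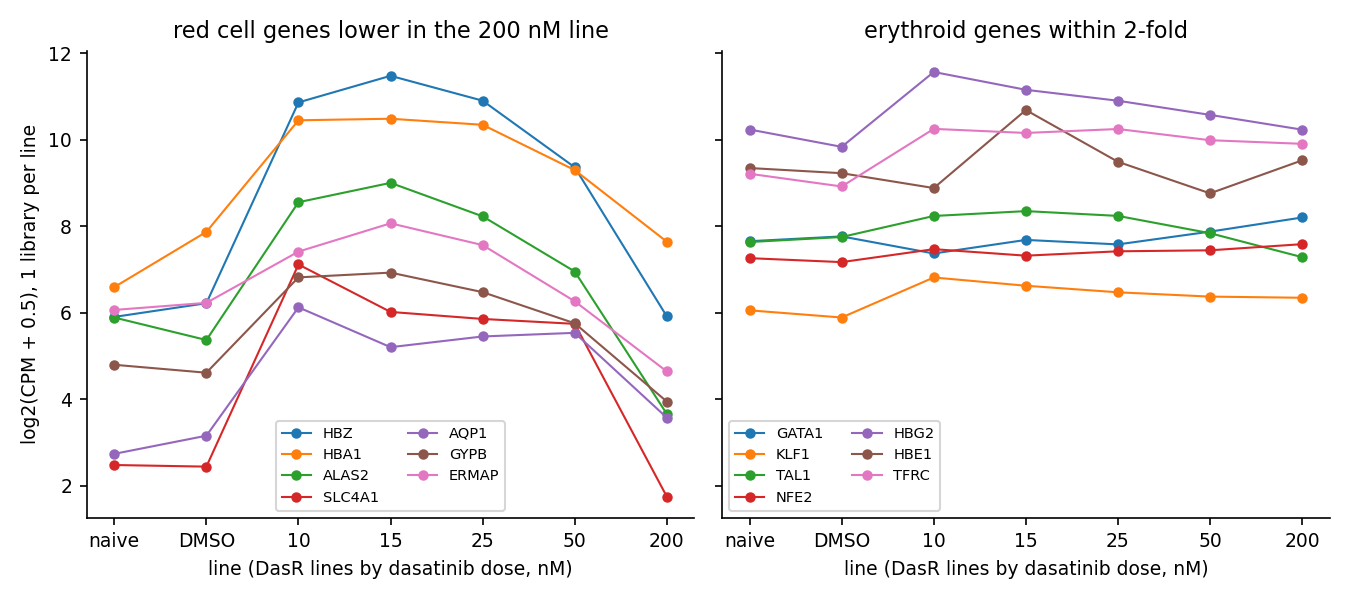
Log2 of CPM with 0.5 added (vertical axis) in each of the 7 libraries, for red cell genes lower in the 200 nM line (left) and for erythroid genes within the limit (right), 1 line per gene and 1 point per library. HBZ, ALAS2, SLC4A1 and GYPB are high in the 10, 15 and 25 nM lines, lower at 50 nM and lowest among the DasR lines at 200 nM, while GATA1, KLF1 and NFE2 stay within 2-fold over all 7 libraries.

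A stretch of lower genes lay on chromosome 22, on the centromere side of BCR. Genes were counted by their start, from that of DGCR2 to that of BCR (chr22:19023795-23521891 on GRCh37), bounds that were chosen after the values were seen, and each of the 47 kept genes that start there had a ratio below 0. Of these, 17 were lower past the limit, against 1.67% of all kept genes, and none higher, with a median of -0.82 (from -1.75 to -0.04) against 0.04 in the control pair. Summed over the 47 genes, the level was 18878 CPM at 50 nM and 9796 at 200 nM. Against the mean of the controls, the median of these genes was 0.93, 1.01 and 0.95 in the 10, 15 and 25 nM lines, 0.86 at 50 nM and -0.01 at 200 nM. The 4 lower doses were close to each other, and the 200 nM line was at the control level.

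By chromosome, the share of kept genes lower in the 200 nM line was 7.5% on chromosome 22, 3.93% on chromosome 4, and at most 2.67% on any other, while the chromosome medians stayed between -0.06 and 0.12. Outside the stretch, the 9 kept genes before DGCR2 had a median of -0.33, the 20 kept genes that start after BCR does, up to 28 Mb, one of 0.18, and the 164 kept genes of the rest of the chromosome one of 0.12, with 3 higher and 1 lower. The first of these 20, the pseudogene FBXW4P1 (0.19), lies within BCR. Among runs of 9 neighboring kept genes over the genome, the 2 with the lowest medians were both in this stretch, from PPIL2 to PRAME (chr22:22020289-22901768, -1.19) and from PI4KA to YDJC (chr22:21061979-21984353, -0.96). The lowest run of the control pair, USP32P2 to SNORD3C on chromosome 17, had a median of -0.92, and the next one of -0.50.

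CRKL, an adaptor that BCR::ABL1 phosphorylates, had 742 and 576 CPM in the controls, 1328, 1434 and 1460 in the early lines, 1293 at 50 nM and 633 at 200 nM (-1.03). The 200 nM level of CRKL lay between the controls. PRAME, a cancer-testis antigen, was at 1714 and 1816 CPM in the controls, 3255, 3702 and 3312 in the early lines, 3094 at 50 nM and 1266 at 200 nM (-1.29), below both controls.

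SEPT5, a septin, had 181 and 175 CPM in the controls, 854, 954 and 943 in the early lines, 761 at 50 nM and 278 at 200 nM (-1.45). PPM1F, a phosphatase, went from 502 to 190 CPM (-1.40), UBE2L3, a ubiquitin-conjugating enzyme, from 958 to 475 CPM (-1.01), and ZNF280B, a zinc finger gene, from 157 to 46.3 CPM, the lowest ratio of the stretch (-1.75). YPEL1 (-1.19), RTN4R (-1.24) and DGCR11 (-1.07) were past the limit but not past the control spread, and these 3 were kept only through the 50 nM line. Of the 6 genes with the highest CPM among those lower past the limit, 5 were in this stretch, PRAME, CRKL, UBE2L3 and SEPT5 among them.

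**Figure D4:**
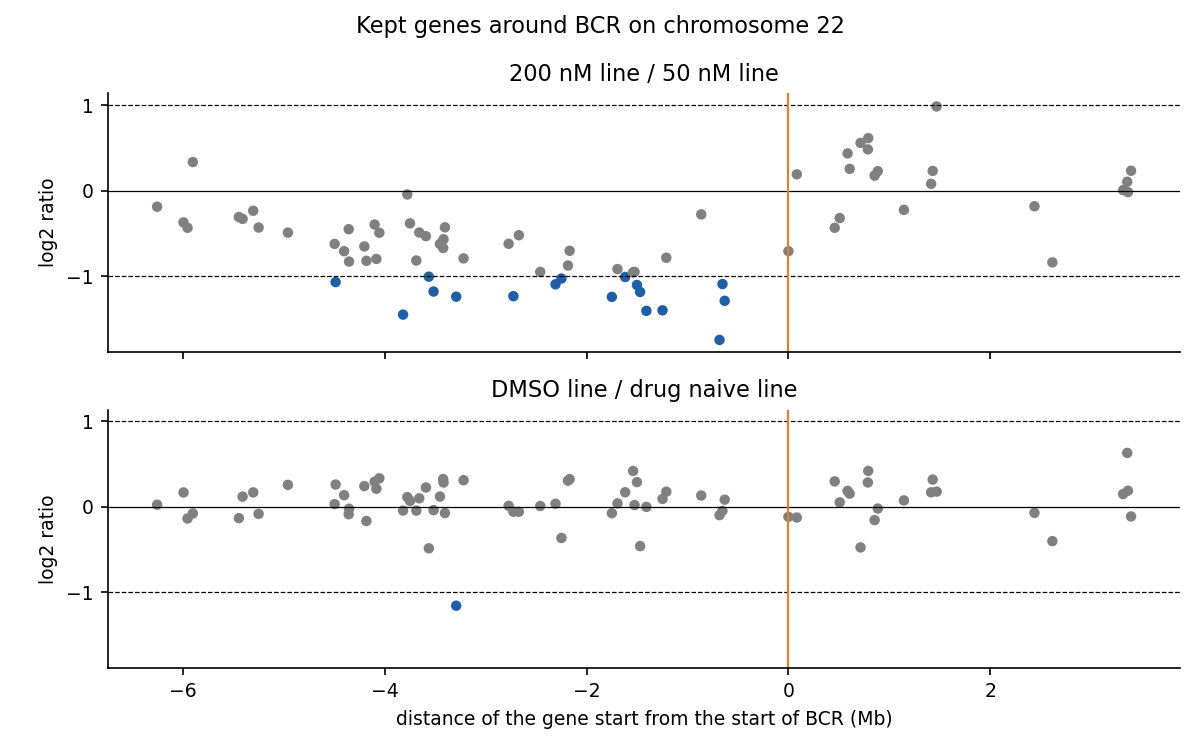
Log2 ratio of kept genes of chromosome 22 by the distance in Mb of the gene's start from that of BCR (orange line), for the 200 nM line against the 50 nM line (top) and for DMSO against drug naive (bottom), with dashed lines at the 2-fold limit and blue points past it. The 47 genes that start from DGCR2 up to BCR's own start all lie below 0 in the top panel, with a median of -0.82, and the 20 that start after it have a median of 0.18.

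BCR and ABL1 themselves were within the limit. ABL1 read 349 and 319 CPM in the controls, 2557, 2021 and 1686 in the early lines, 1390 at 50 nM and 918 at 200 nM, a ratio of -0.60 [-0.62 to -0.57]. BCR was at 195 and 180 CPM in the controls, 1379, 1097 and 933 in the early lines, 757 at 50 nM and 463 at 200 nM (-0.71 [-0.75 to -0.67]). Both had their highest level at 10 nM and their lowest DasR level at 200 nM, which was still above the controls. Counts per gene do not separate reads of the fusion from reads of the unfused genes. Of the 14 kept genes around ABL1 on 9q34, none was past the limit (median -0.05). NUP214, a nuclear pore gene distal to ABL1, had 742 and 753 CPM in the controls, 4499, 2158 and 2266 in the early lines, 2960 at 50 nM and 1957 at 200 nM (-0.60). FAM78A, another gene of 9q34, had 69.2 CPM at 50 nM and 124 at 200 nM (0.84), within the limit. AIF1L, which lies between ABL1 and NUP214, went the other way, with 62.4 CPM at 50 nM and 37.1 at 200 nM (-0.74). Both FAM78A and AIF1L were past the control spread. In the list of 25 kept 22q11 genes, the 18 on the centromere side of BCR had a median of -1.06 with 11 lower, against 1.67% of all kept genes, and the 6 distal to the break had a median of 0.35 with none past the limit.

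ABCG2, the efflux pump for which dasatinib is a substrate, had the lowest ratio of all kept genes. It read 3.57 CPM in the drug naive and 0.582 in the DMSO library, 512, 3122 and 3089 in the 10, 15 and 25 nM lines, 199 at 50 nM and 2.41 at 200 nM. The 200 nM level lay between the controls and rested on 52 counts, against 4149 at 50 nM, and the ratio was -6.10 [-6.79 to -5.98], 68.7-fold lower. The control pair differed by -1.91 for this gene, on 75 and 14 counts. Its neighbors on 4q22 were lower too where they were close to it. PKD2, a calcium channel gene on one side of ABCG2, had 6.24 and 4.04 CPM in the controls, 336, 1491 and 1717 in the early lines, 147 at 50 nM and 12.9 at 200 nM (-3.46 [-3.69 to -3.33]). PPM1K, a mitochondrial phosphatase on the other side, had 25.9 and 24.4 CPM in the controls, 776, 3694 and 3684 in the early lines, 251.1 at 50 nM and 32.3 at 200 nM (-2.94). All 3 genes had their highest levels at 15 and 25 nM, and at 200 nM each was nearer to the controls than to any other DasR line.

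Farther along 4q22 several ratios were small, with PIGY at 0.14, NAP1L5 at -0.29, FAM13A at 0.36 and TIGD2 at -0.05. MMRN1, a megakaryocyte and endothelial protein farther still from ABCG2, had no counts in the drug naive library, 0.125 CPM in DMSO, 0.791, 0.898 and 4.19 in the early lines, 10.2 at 50 nM and 1.53 at 200 nM. Its order differed from that of ABCG2, with the highest level at 50 nM (-2.40). SPP1, which encodes osteopontin, was at 1.34 CPM at 50 nM and 0.0463 at 200 nM, a single count, and did not pass the filter. The list of 4q22 genes does not hold MMRN1, and of its 13 kept members 3 were lower (ABCG2, kept only through the 50 nM line, PKD2 and PPM1K), against 1.67% of all kept genes, and none higher, with a median of -0.10. The other drug transporters were within the limit in all 14 kept members (median 0.07), among them ABCC1 (141 and 138 CPM) and the nucleoside carrier SLC29A1 (166 and 147 CPM).

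Other strongly lower genes followed more than 1 order over the lines. CPVL, a carboxypeptidase, read 5.47 and 0.499 CPM in the controls, 104, 8.66 and 28.8 in the early lines, 58.2 at 50 nM and 0.926 at 200 nM (-5.36), and the controls themselves differed by -2.58. PAPSS1, an enzyme that makes the sulfate donor of the cell, had 107 and 99.6 CPM in the controls, 53.8, 23.7 and 27.3 in the early lines, 55.8 at 50 nM and 2.96 at 200 nM. It was the only one of the 12 lowest genes whose controls were above every DasR line, and its ratio was -4.02 [-4.62 to -3.87]. FAM198B (25.1 and 1.44 CPM, -3.72), PLCL2 (15.7 and 1.16 CPM, -3.28) and the receptor kinase FGFR1 (15.1 and 1.20 CPM, -3.20) were each under 2 CPM in both controls and above 25 CPM in all 3 early lines. TFPI, the inhibitor of the tissue factor pathway, read 209 and 152 CPM in the controls, 834, 238 and 537 in the early lines, 1226 at 50 nM and 458 at 200 nM (-1.42). Its 50 nM level was the highest of the 7.

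Smaller falls were seen for LIFR, a cytokine receptor (98.1 and 36.2 CPM, -1.42), BTG2, an antiproliferative p53 target (100 and 34.2 CPM, -1.54), OAS3, an interferon-induced enzyme (13.5 and 3.75 CPM, -1.72), and THBS1, a platelet granule protein (52.8 and 17.8 CPM, -1.54). AHNAK, a large scaffold protein, had 1270 and 546 CPM in the controls, 433 at 50 nM and 193 at 200 nM (-1.17), while drug naive and DMSO differed by as much (-1.22). PRG2, an eosinophil granule protein, had 16.4 CPM at 50 nM and 4.72 at 200 nM (-1.69), and 2.05 CPM at 15 nM. In 25 of the 167 lower genes, PAPSS1, ALAS2 and ERMAP among them, the 200 nM library was at least 2-fold below each of the other 6. In 10, the 50 nM library was at least 2-fold above each of the other 6.

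Of the 129 higher genes, 90 were under 10 CPM in the 50 nM line and so entered the comparison only through the 200 nM line, where they were high, and likewise 90 of the 167 lower genes entered only through the 50 nM line. RAB27B, a small GTPase of granule secretion, read 4.76 and 4.74 CPM in the controls, 0, 0.108 and 0.249 in the early lines, 0.432 at 50 nM and 43.5 at 200 nM. It was near 0 in all lower doses and highest at 200 nM, with a ratio of 5.56 [5.72 to 7.79], the largest of the genes with a symbol. CCDC68, its neighbor on chromosome 18, rose with it, from 3 counts (0.144 CPM) at 50 nM to 14.1 CPM at 200 nM (4.51 [5.06 to 8.90]), with 3.67 and 3.45 CPM in the controls. PDE4D, a cyclic AMP phosphodiesterase, had 1.76 and 1.83 CPM in the controls, 0.396, 1.62 and 1.05 in the early lines, 0.672 at 50 nM and 36.0 at 200 nM (4.96). TP63, a p53 family factor, had 2.48 and 2.58 CPM in the controls, 1.34 at 50 nM and 26.1 at 200 nM (3.85). SLC6A19, an amino acid transporter, had 8.04 and 4.74 CPM in the controls, 3.17 at 50 nM and 65.4 at 200 nM (4.17). These 5 genes were each more than 2-fold above both controls in the 200 nM line.

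A second kind of higher gene was back near the controls. DCAF4L2, a ubiquitin ligase adaptor, read 22.1 and 23.9 CPM in the controls, 0.539, 1.47 and 0.449 in the early lines, 0.624 at 50 nM and 27.2 at 200 nM (4.62 [4.66 to 6.36]). LINC01296, a non-coding RNA, had 136 and 138 CPM in the controls, 10.0, 22.7 and 8.92 in the early lines, 4.80 at 50 nM and 120 at 200 nM (4.50). TREML2, a myeloid receptor, had 13.3 and 17.2 CPM in the controls, 0.360, 0.323 and 0.299 in the early lines, 0.624 at 50 nM and 18.4 at 200 nM (4.07). All 3 were low in the 4 lower doses and at the control level at 200 nM. MAGED1, a MAGE family adaptor (3.22 and 46.6 CPM, 3.66), and DES, the intermediate filament desmin (2.11 and 25.3 CPM, 3.31), had control levels of 32.7 and 36.9 CPM and of 16.4 and 13.7 CPM. RBM47, an RNA binding protein, read 22.9 and 20.5 CPM in the controls, 0.935, 0.395 and 0.449 in the early lines, 1.54 at 50 nM and 14.7 at 200 nM (2.90), below both controls. PGR, the progesterone receptor gene, had 2 counts at 50 nM (0.0960 CPM) and 11.2 CPM at 200 nM (4.30 [4.999 to 9.92]), with 4.76 and 9.03 CPM in the controls. MUC19 and LRATD1 were the other genes in the top 12, at 22.05 and 15.9 CPM in the 200 nM line and under 2 CPM in each of the other 6 libraries.

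Other higher genes were already above the controls at 50 nM. KIF1A, a kinesin motor of axons, read 1.14 and 1.12 CPM in the controls, 23.1, 0.539 and 32.3 in the early lines, 89.4 at 50 nM and 378 at 200 nM (2.07 [2.01 to 2.15]). PLA2G4A, the phospholipase that releases arachidonic acid, had 2.62 and 2.04 CPM in the controls, 5.61, 2.41 and 12.6 in the early lines, 30.3 at 50 nM and 105 at 200 nM (1.78). CCND1, which encodes cyclin D1, had 17.3 and 13.3 CPM in the controls, 2.37, 1.29 and 15.0 in the early lines, 43.2 at 50 nM and 106 at 200 nM (1.29). In each of these 3, the 15 nM line was the lowest of the DasR lines, and the 200 nM line was the highest of the 7 libraries. Over all 129 higher genes, 52 were at least 2-fold above each of the other 6 libraries in the 200 nM line.

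**Figure D5:**
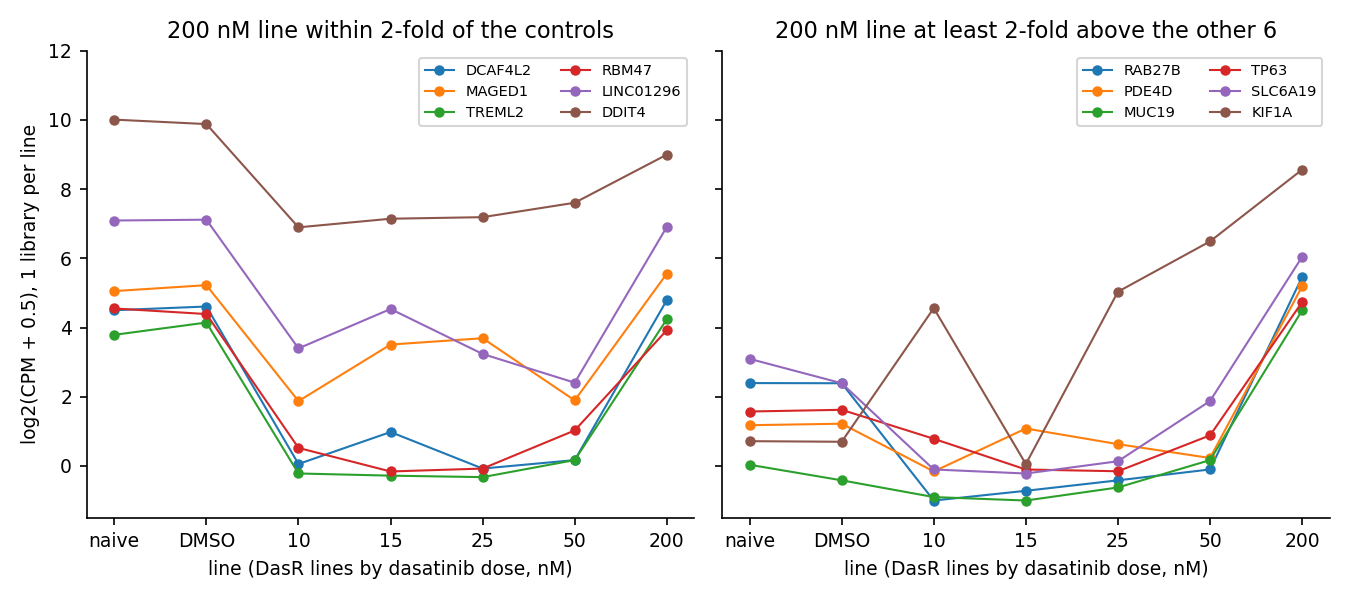
Log2 of CPM with 0.5 added (vertical axis) in each of the 7 libraries, for higher genes whose 200 nM level was within 2-fold of the controls (left) and for those at least 2-fold above each of the other 6 libraries (right), 1 line per gene and 1 point per library. DCAF4L2, LINC01296, TREML2 and RBM47 fall in the lower doses and end near the controls, while RAB27B, PDE4D and KIF1A end above every other library.

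The most abundant higher genes had smaller ratios. FADS1, a fatty acid desaturase, read 1055 and 781 CPM in the controls, 323, 183 and 309 in the early lines, 870 at 50 nM and 1788 at 200 nM (1.04 [1.01 to 1.06]). It was low in the early lines, back within the controls at 50 nM, and highest at 200 nM. LAPTM5, a lysosomal membrane protein of blood cells, had 162 CPM at 50 nM and 508 at 200 nM (1.64), while DMSO against drug naive gave -1.46, in the other direction. DDIT4, an inhibitor of mTORC1, read 1030 and 942 CPM in the controls, 119, 141 and 146 in the early lines, 194 at 50 nM and 510 at 200 nM (1.39), still below both controls. RN7SL1 and RN7SL2, near-identical copies of the signal recognition particle RNA, had 763 and 903 CPM at 200 nM and 228 and 345 CPM at 50 nM (1.74 and 1.39). The libraries were depleted of non-coding RNA, and the part of depletion in these values was not tested.

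A few early response and feedback genes of the ERK pathway were higher in the 200 nM line. Of 17 kept, 3 were higher, against 1.29% of all kept genes, and none lower, with a median of 0.32 against 0.07 in the control pair, and the 3 were EGR1, FOS and CCND1. FOS was kept only through the 200 nM line, where it was high, so that the count is a description. EGR1, a transcription factor induced within minutes by growth signals, read 77.7 and 183 CPM in the controls, 76.9, 108 and 138 in the early lines, 198 at 50 nM and 457 at 200 nM. Its ratio of 1.20 was matched by that of the control pair (1.23). FOS, a subunit of the AP-1 factor, had 2.90 and 4.91 CPM in the controls, 1.65, 2.94 and 2.84 in the early lines, 2.74 at 50 nM and 15.4 at 200 nM (2.30 [2.09 to 2.93]), and was high in the 200 nM line alone. Of 10 kept STAT5 targets none was past the limit (median 0.19), among them PIM1, a survival kinase, with 466 CPM at 50 nM and 826 at 200 nM (0.83).

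Genes of the amino acid response, which the factor ATF4 drives, mostly had ratios above 0 that were within the limit. Of 32 kept, 2 were higher, DDIT4 and CHAC1, against the same 1.29% of all kept genes, and none lower, with a median of 0.27 against 0.08 in the control pair, and 28 had a ratio above 0. CHAC1 was kept only through the 200 nM line, where it was high, so that the count is a description. CHAC1, which degrades glutathione, read 38.3 and 56.2 CPM in the controls, 2.88, 4.96 and 3.44 in the early lines, 4.27 at 50 nM and 15.7 at 200 nM (1.77). SLC38A2, an amino acid transporter, had 634 and 677 CPM in the controls, 386 at 50 nM and 663 at 200 nM (0.78), at the control level. ASNS, asparagine synthetase, had 897 and 952 CPM in the controls, 184, 175 and 198 in the early lines, 257 at 50 nM and 300 at 200 nM (0.22), and ATF5 went from 62.4 to 34.2 CPM (-0.86), so that the members of the list did not share 1 pattern. The glycolysis list had a median of 0.31 with 1 of 25 kept members higher, against 1.29% of all kept genes, but its median in the control pair was -0.62, larger in size. The 1 member, EGLN3, was kept only through the 200 nM line and was within the control spread.

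Most other lists were near 0. Of 45 lists, 21 had no member past the limit, and 43 had a median within 0.5 of 0, the exceptions being the red cell membrane and the 22q11 genes. The 37 ribosomal protein genes had a median of -0.01 and the 36 kept MYC targets one of 0.15 (0.32 in the control pair), with no member past the limit in either. MYC itself had 243 CPM at 50 nM and 264 at 200 nM (0.12). None was past the limit among 19 kept dasatinib target kinases (median -0.08), 16 BCL2 family genes (0.08), 20 tRNA synthetases (0.17), 25 mitosis genes (0.07) and 12 Hedgehog and Wnt genes (-0.08). The respiratory chain genes had a median of 0.25 with 20 of 21 above 0 and none past the limit. Of 31 kept genes of cholesterol and fatty acid synthesis, 1 was higher, FADS1, against 1.29% of all kept genes, and none lower. The median of this list was 0.02, and -0.40 in the control pair. Among 14 kept megakaryocyte and platelet genes, 1 was higher and 2 lower (median 0.10), against 1.29% and 1.67% of all kept genes. RAB27B was the higher one, MMRN1 and THBS1 were the lower 2, and 3 of the 14 were kept through 1 line only, RAB27B and MMRN1 among them. FERMT3, the integrin activator of blood cells, read 212 and 207 CPM in the controls, 10.8, 3.02 and 51.9 in the early lines, 180 at 50 nM and 351 at 200 nM (0.96), and ITGA2B, the platelet integrin chain, 56.8 and 99.2 CPM (0.80). Neither was past the limit. Past the control spread were 5 of the 14 kept members, ITGA2B among them.

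Of the other genes that the study named for its transcriptome, SMO, the Hedgehog receptor component, read 0.286 and 0.166 CPM in the controls, 21.1, 26.1 and 15.3 in the early lines, 10.3 at 50 nM and 5.37 at 200 nM (-0.88), within the limit. FZD3, MAPK4 and G0S2 did not pass the filter. FZD3, a Wnt receptor, had 7.44 CPM at 50 nM and 8.43 at 200 nM. MAPK4, an atypical kinase, had 43 counts at 50 nM and 1 at 200 nM. G0S2, an inhibitor of lipolysis, read 62.7 and 60.3 CPM in the controls, 0.755, 0.503 and 0.349 in the early lines, 0.576 at 50 nM and 2.50 at 200 nM, and stayed far below the controls. GUSB, used as a reference gene, had 91.4 and 95.05 CPM (0.06).

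At the limit, STARD8 (1.01) was the last gene called higher and FCGR2A (0.99) the first one not called, and CR1 (-1.001) and VWF (-0.999) lay on either side of the lower limit. At the filter, LATS2 entered with 10.0 CPM in the 200 nM line and NFYC-AS1, with 9.99 CPM, did not.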

How the data were processed

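RNA of 7 K562 lines was sequenced as paired end reads, with 1 library per line. Reads were aligned by the authors with STAR against hg19, and the counts they deposited are raw whole numbers for 25702 gene IDs. The submitters' processing notes also name FastQC, featureCounts and edgeR, and the strand setting of the counting was not given in the sources used here. The authors' comparison tables hold fold changes, p-values and mean levels, and none of these values was used. No deposited column of other samples was left over (0).

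Counts were divided by the library total to give CPM, and log2 ratios were taken after adding 0.5 CPM. Genes with at least 10 CPM in either library were kept. Library totals ranged from 20059656 to 27844799, so that the floor of 3 counts was 0.144 CPM at 50 nM and 0.139 CPM at 200 nM. Exact Clopper-Pearson 95% intervals of the ratio of counts cover counting error only. The control spread was the 99th percentile of the absolute log2 ratio of DMSO against drug naive in 10 bins of abundance. Each line has 1 library, so that differences between the lines and differences between libraries cannot be told apart.

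Symbols were found for 23738 of the IDs, and 22546 were placed on GRCh37, the build of hg19. Promoter windows are those of RefSeq on GRCh38.p14 and were matched by gene ID, and the printed ones were picked by symbol. The 45 gene lists hold 1110 genes, of which 1098 were in the table. The members and lists were chosen with earlier results of these data known. The genes named were those the study names, the 12 genes with a symbol with the largest and smallest ratios, the 6 most abundant called genes each way, list members past the limit and the most abundant member of each list, genes of the most extreme runs of 9 neighbors, and the genes beside the limit. Other list members named, such as GATA1 or SLC38A2, and AHNAK, KIF1A and the bounds on chromosome 22 were chosen after their values were seen. A few genes are not reported here.

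Alternatives were TMM factors (edgeR 4.0.16) and median-of-ratios factors (DESeq2 1.42.0, R 4.3.3) in place of library totals, other pseudocounts, filters and limits, and runs of other lengths. Computation used Python 3.11.15 with numpy 2.4.6, scipy 1.17.1 and pandas 2.3.3, and figures matplotlib 3.10.9. The functions were tested on simulated data.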

Additional observations from a re-analysis of the deposited data

How the results depend on the processing

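The 296 genes past the limit became 868 with no filter beyond 1 count (351 higher, 517 lower), 794 with 1 CPM in either line (315 and 479), and 116 with 10 CPM in both lines (39 and 77). They became 143 at a log2 limit of 1.5 (71 and 72) and 86 at 2 (49 and 37). TMM gave 296, DESeq2 size factors 293, an added 0.1 CPM 307, an added 2 CPM 256, and a filter of 10 CPM in at least 2 of the 7 libraries 324. The share of the called genes that were higher was 43.6%, and was 33% with 10 CPM in at least 2 of the 7 libraries, 33.6% with 10 CPM in both, and 57% at a limit of 2. Genes past the control spread went from 334 to 94 with a stricter percentile of the control pair, the highest that was tried, and were 320 without bins of abundance, 325 with TMM and 320 with DESeq2 size factors. The lowest run of 5 neighbors, around ABCG2, had a median of -2.94 and the highest one of 2.13, and the highest run of 15 one of 0.45. Of the medians of the lists, 224 values under the alternatives moved by less than the spread and 1 moved, the myeloid, mast and basophil list with 1 CPM in either line, from 0.08 to -0.17. Some medians near 0 changed sign without moving by more than the spread. The megakaryocyte and platelet median went from 0.10 to -0.13 with 1 CPM in either line, and to 0.01 with TMM. Chosen after seeing the data, leaving out the genes of the 22q11 and 4q22 stretches left 275 called genes (129 and 146), and leaving out genes past 1 in the control pair left 271 (117 and 154). Of the ratios of named genes, 143 values stayed within their counting interval and 45 left it, and all 69 chromosome medians moved by less than the spread. No called value changed direction under these alternatives. The cause of these changes was not tested beyond the number of genes that each filter keeps. No paired analysis was possible because each line has 1 library, and for the same reason no library could be left out. Depth limits the low genes, since RAB27B, CCDC68 and PGR rested on 9, 3 and 2 counts at 50 nM.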

Other observations

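Some neighboring genes outside the stretches described above also moved in 1 direction, and they were chosen after their values were seen. On 1q23, the run from FCGR2A to SH2D1B (chr1:161475220-162381928 on GRCh37) had the highest median of all runs of 9 kept genes, 1.03. FCGR2B, an inhibitory Fc receptor, read 22.6 and 11.7 CPM in the drug naive and DMSO libraries, 2.84, 1.80 and 4.64 in the 10, 15 and 25 nM lines, 17.8 at 50 nM and 64.0 at 200 nM (1.82). FCGR2C followed it (33.0 and 110 CPM, 1.72), and so did HSPA7 (11.3 and 44.6 CPM, 1.93) and SH2D1B, an adaptor of natural killer cells (9.55 and 25.9 CPM, 1.39), while DUSP12 (0.04) and ATF6 (-0.09) of the same run were near 0. FCGR2B, FCGR2C, HSPA7 and SH2D1B were lowest in the early lines, and all 4 were above both controls at 200 nM. The control pair differed by -0.92 for FCGR2B and -1.27 for HSPA7, and by -0.34 for FCGR2C and 0.04 for SH2D1B. SH2D1B was kept only through the 200 nM line, where it was high. FCGR2A, FCGR2B and FCGR2C are near-identical in part, as are HSPA6 and HSPA7, so that reads could have been split between them.

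In the 19p12 zinc finger cluster, 8 of 20 genes were kept, and the 4 of these that were higher entered the comparison only through the 200 nM line, where they were high, so that their number is not a result. ZNF208 read 9.43 and 7.40 CPM in the controls, 1.65, 2.98 and 4.14 in the early lines, 2.88 at 50 nM and 19.04 at 200 nM (2.53). ZNF257 (3.07 and 15.1 CPM, 2.13), ZNF724 (1.63 and 10.5 CPM, 2.36) and ZNF91 (6.10 and 27.7 CPM, 2.09) were also higher, while ZNF675 (-0.05), ZNF681 (0.02), ZNF254 (0.13) and the pseudogene RPSAP58 (0.01) were near 0. The run of 9 that holds them, up to UQCRFS1, had a median of 0.46. The 200 nM line was the highest of the 7 libraries for each of the 4 higher genes.

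Of 7 genes of the MS4A family of membrane proteins on chromosome 11, 3 were kept, each only through the 50 nM line, where it was high. MS4A3, a gene of myeloid precursors, read 34.8 and 30.0 CPM in the controls, 238, 11.8 and 21.7 in the early lines, 59.8 at 50 nM and 6.21 at 200 nM (-3.17 [-3.54 to -3.01]). MS4A4A (30.7 and 2.50 CPM, -3.38) and MS4A6A (26.6 and 3.06 CPM, -2.93) also had lower levels at 200 nM, while MS4A2 (2.21 and 1.30 CPM) and MS4A7 (0.192 and 0.324 CPM) were not kept. All 3 kept genes were higher at 10 nM than at 15 nM.

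A few genes were highest at 50 nM. GBP2, a guanylate binding protein induced by interferon, read 5.76 and 5.24 CPM in the controls, 35.0, 10.2 and 30.3 in the early lines, 98.4 at 50 nM and 29.6 at 200 nM (-1.72). GBP4, its neighbor, had 9.09 and 8.74 CPM in the controls, 82.8, 33.8 and 79.4 in the early lines, 223 at 50 nM and 96.3 at 200 nM (-1.21), while GBP5 had a ratio of 0.12. NTS, which encodes neurotensin, had 0.143 and 0.458 CPM in the controls, 51.4, 1.94 and 75.7 in the early lines, 200 at 50 nM and 96.5 at 200 nM (-1.05). In all 3, the 15 nM line was the lowest of the DasR lines. Of the 11 kept interferon response genes, 1 was lower, OAS3, against 1.67% of all kept genes, and none higher (median -0.09), and 2 of the 11 were kept through 1 line only, OAS3 among them.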
